A study of Mus musculus with 11 samples.

Results

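Gene expression in mouse colon 3 h after imatinib was set against that in colon taken before the drug. The comparison rests on 7 of the study's 11 arrays, chosen by their labels, of which 3 are labelled control and 4 are labelled 3 h, and it covers 18193 genes. The remaining 4 arrays, labelled 12 h, share the estimate of spread and are quoted beside the 3 h values. Every array carried total RNA of colon from adult C57BL/6 mice. The treated mice had been injected with imatinib, and no dose, route, sex or exact age was taken from the labels. No genotype other than the strain is given for either group. Imatinib inhibits a small set of tyrosine kinases, among them the PDGF receptors, Kit and the Abl kinases, and the study's title concerns EphB and Abl signalling in the growth of intestinal tumours. Ephb2 was not analysed here.

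The colon is an epithelium of absorptive, mucus-secreting and hormone-secreting cells on a mesenchyme of fibroblasts, smooth muscle, vessels, nerves and macrophages. The layers signal to each other: hedgehog ligands pass from the epithelium to the mesenchyme, and Wnt and BMP ligands from the mesenchyme act on the crypts. Cytokines of the interleukin 6 family act through the shared receptor gp130 and the transcription factor STAT3, and hormones that raise cyclic AMP induce a set of early genes of which several in turn limit the response.

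The deposited signals had a mean of 100 on each array after trimming 2% at both ends, with medians of 16.8 to 23.9 per array. Nothing in the labels ties each sample to its own mouse, and p-values therefore describe only how far these samples differ from each other, which may be technical. No vehicle-injected or time-matched control is part of the comparison (such samples were not analysed here), and effects of imatinib, of injection and of harvest time cannot be told apart. In a whole tissue fewer cells of a type and less RNA per cell cannot be told apart either. Markers of colon epithelium, goblet cells and smooth muscle were bright on every array, and of the 8 epithelial markers the intestinal factor Cdx2 rose (log2 change 0.75) and none fell. Of the 6 endothelial, 6 fibroblast, 5 smooth muscle, 5 goblet cell, 5 T cell and 5 B and plasma cell markers none passed the test by limma, and none of these had an unadjusted p under 0.05.

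Other markers did move with the groups or with single arrays, and their part in the results was not tested. The mean log2 level of 11 pancreatic acinar markers was 13.19 on control replicate 1 and 11.17 on 3 h replicate 3, against 5.25 to 7.70 on the other 5 arrays, and it also exceeded 10 on 12 h replicates 1, 3 and 4. None of the 11 was at 0 on every array. The mean level of 6 fat cell markers was 6.82 to 7.25 at 3 h and 6.18 to 6.58 in control. Their summed signal was 1537 to 2293 and 720 to 976, and Fabp4, a fatty acid carrier of fat cells, rose (1 of 6; none at 0 on every array). Dimmer probe sets of Fabp4 changed by −0.15 to 1.04. The Fabp4 call was lost without control replicate 2 or 3 or 3 h replicate 2 or 3 (limma, adjusted p up to 0.0695). The mean level of 7 macrophage markers was 7.19 to 7.38 at 3 h and 7.56 to 7.92 in control, with summed signals of 1279 to 1596 and 1511 to 2084. The mean level of 3 liver markers was 6.09 to 6.47 at 3 h and 6.6 to 6.79 in control, and none was called. The 6 male accessory gland markers averaged 6.84 on 3 h replicate 4, 4.15 to 4.32 on the other 3 h arrays and 4.26 to 5.55 in control. Of 24 probe sets for bacterial control RNA that is added during labelling, 8 had all 3 h arrays above all controls and none the reverse, with a median log2 difference of 0.18.

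**Figure D1:**
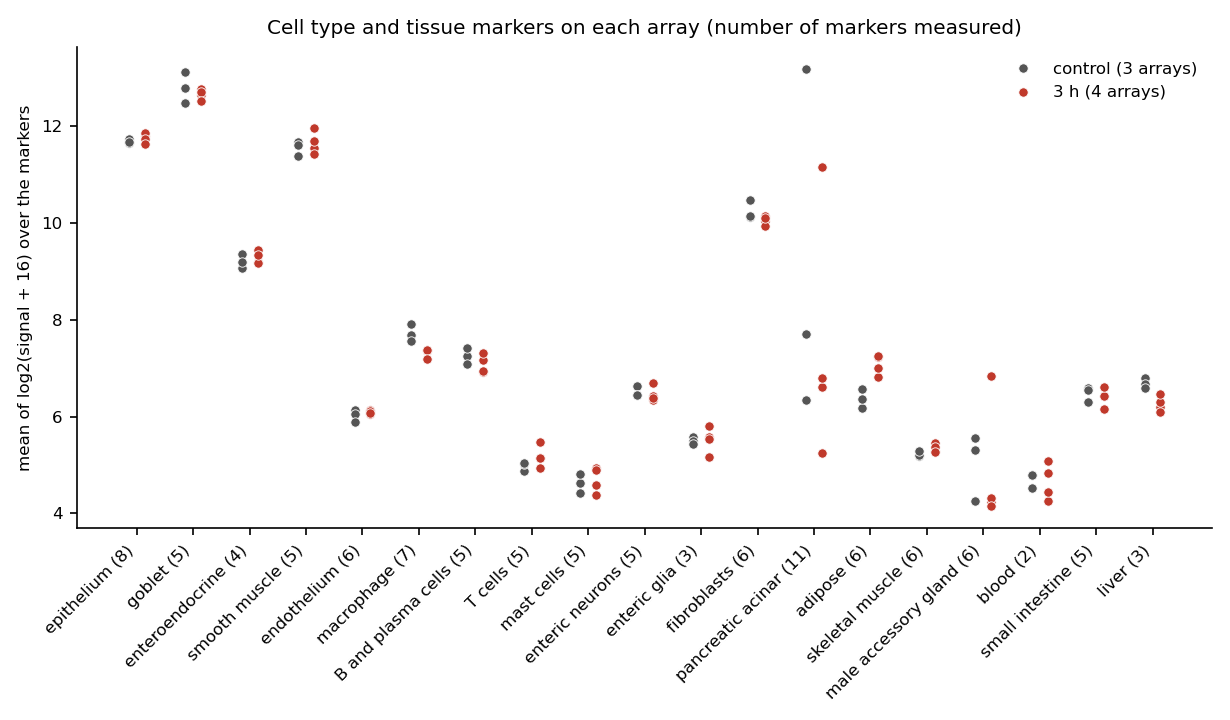
Mean log2(signal + 16) over the markers of each cell type or tissue (vertical axis) on the 3 control arrays (grey) and the 4 arrays at 3 h (red), with the number of markers measured in brackets. The pancreatic acinar markers reach 13.19 on control replicate 1 and 11.17 on 3 h replicate 3, the fat markers lie higher at 3 h (6.82 to 7.25 against 6.18 to 6.58), and the macrophage markers lie lower (7.19 to 7.38 against 7.56 to 7.92).

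At 3 h, 261 genes rose and 202 fell (limma, Benjamini-Hochberg adjusted p under 0.05), which is 2.54% of the genes tested, 1.43% rising and 1.11% falling. These shares are to be set beside the percentage called that is given for each list below. In a list of 20 genes 1 call already makes 5.0%. Rises were larger than falls. Of the rises 99 were at least 2-fold and 14 at least 4-fold on the log2(signal + 16) scale, against 20 and 2 of the falls, and 15% of all genes had an unadjusted p under 0.05, a share to set beside the counts at that level given below. The median log2 change was 0.85 for rising genes, −0.63 for falling genes and −0.02 for all genes. The arrays of the groups did not overlap for any of the 463 genes, where 15.3% of all genes did not overlap (6.76% upward, 8.55% downward). Dimmer probe sets of the same genes had the same sign in 245 of 278 cases for rising genes (88.1%; median log2 change 0.38) and in 197 of 236 for falling genes (83.5%; −0.27).

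The number of calls changed when single arrays were left out, which also leaves fewer arrays to test with. The part of each was not tested. Rises and falls numbered 120 and 52 without control replicate 1, 109 and 52 without control replicate 2, and 136 and 87, 140 and 83, and 170 and 89 without 3 h replicates 2, 3 and 1. Falls numbered 102 without 3 h replicate 4. Without the 5 arrays high in pancreatic transcripts 68 rose and 12 fell, of which 61 and 10 were among the genes called on all arrays, and all 261 and 202 kept their sign. Of 124 genes named by rule 77 were no longer called without those arrays (adjusted p 0.0511 to 0.375) and 47 were. Those still called were Il6, Osmr, Hp, Cebpb, Cebpd, Ptx3, Nr4a2, Nr4a3, Pde4b, Gem, Nfil3, Akap12, Rcan1, Errfi1, Adamts1, Adamts4, Adamts9, Adamtsl2, Thbs1, Crispld2, Fst, Mt1, Mt2, Sgk1, Scnn1g, Kcne4, Kcnj8, Slc10a6, Ndrg1, Pfkfb3, Arg2, Id2, Zbtb16, Smim3, Sphk1, Krt36 and Hkdc1 upward, and Atp12a, Bmp4, Id4, Fzd2, Tppp, Irs1, Aplnr, Golph3l, Etfbkmt and Cnst downward. The other genes named by rule below lost their call in that fit. With the mean of a gene's probe sets 25 of the 124 were no longer called. Among them the change was smaller by more than 1.5 times for Vcam1 (0.37; adjusted p = 0.387), Hspb8 (0.46; adjusted p = 0.209), Lgr4 (−0.18; adjusted p = 0.413), Nedd4l (0.36; adjusted p = 0.194) and Slc39a14 (0.4; adjusted p = 0.0548), besides genes given with their values below. Cxcl1, Hspa4l, Slc30a1, Odc1, Clock, Adm, Vnn1, Fut9, Hmmr and Rasd2 lost their call with smaller shifts. In every fit that left out 1 array, 86 of the rises and 36 of the falls passed the test. With array medians set equal, 289 genes rose and 147 fell, so that rises made up 66.3% of calls and not 56.4%.

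**Figure D2:**
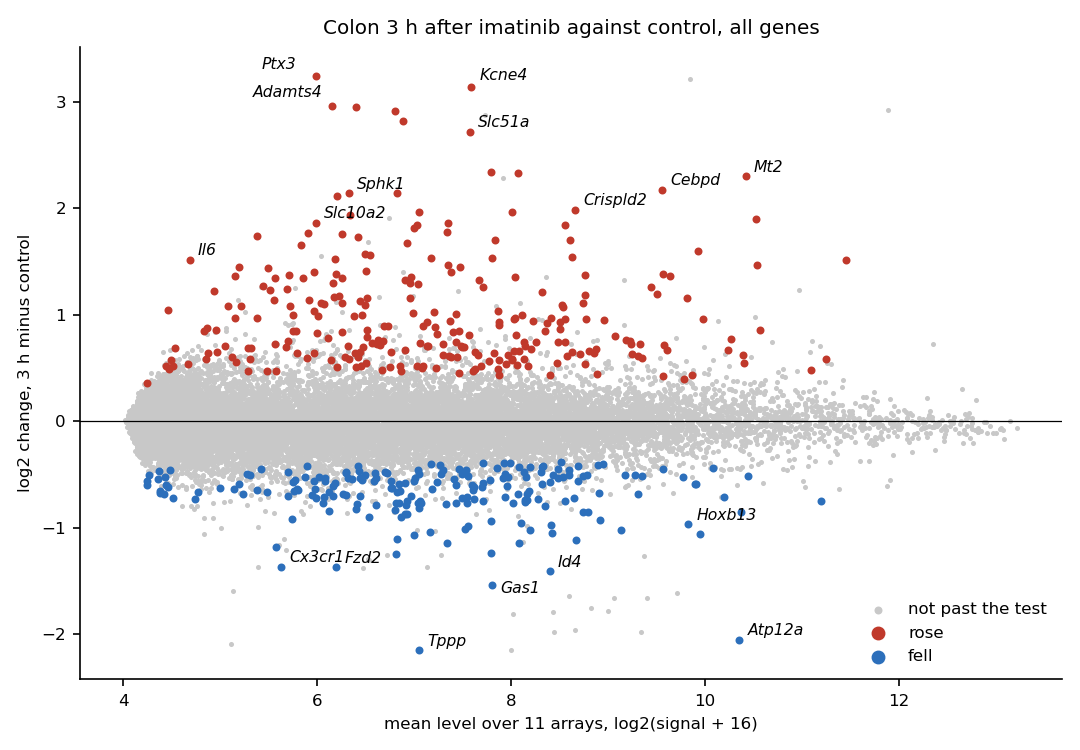
Log2 change from control to 3 h (vertical axis) against the mean level over the 11 arrays in log2(signal + 16) (horizontal axis) for 18193 genes. Red points are the 261 genes that rose, blue points the 202 that fell and grey points the rest. The largest rises reach 3.25 (Ptx3) and the largest falls −2.15 (Tppp), and grey points with large changes are genes that varied within a group.

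Il6, Osmr, Pim3 and Bcl6 rose among genes of the gp130 pathway. Il6, the cytokine that acts through gp130, was at 0.7, 0.4 and 0.7 on the control arrays and at 31.2, 34.7, 30.9 and 29.6 at 3 h. It was thus near 0 in each control and at a similar level on all 4 arrays of the treated group (log2 change 1.52 ± 0.14 SE; adjusted p = 0.000174). Osmr, the receptor subunit for oncostatin M that pairs with gp130, went from 49.6, 74.4 and 69.4 to 161.5, 201.9, 195.0 and 163.1 (1.29 ± 0.25 SE; adjusted p = 0.0182). Pim3, a kinase induced by STAT factors, rose from 232.0 ± 93.5 (SD, n = 3) to 679.0 ± 86.4 (SD, n = 4), and the transcriptional repressor Bcl6 from 54.3 ± 8.74 (SD, n = 3) to 97.5 ± 8.93 (SD, n = 4). With the mean of its probe sets Bcl6 changed by 0.39 and was not called (limma, adjusted p = 0.092). Dimmer probe sets changed by 0.49 and 0.08 for Osmr and by 1.00 and −0.13 for Pim3. In all, 4 of 20 measured genes of gp130 cytokines and the JAK-STAT response rose and none fell (20% called). The median log2 change of the 20 was 0.49, with 18 above 0. Socs3, the feedback inhibitor of gp130 signalling, was at 32.5, 75.5 and 317.7 in control and at 474.2, 605.7, 640.8 and 464.6 at 3 h. Its arrays did not overlap, but the control arrays differed among themselves and it did not pass the test (log2 change 2.29 ± 0.62 SE; adjusted p = 0.0793). Stat3 itself (0.58; adjusted p = 0.109) and the serum amyloid gene Saa3 (0.90; adjusted p = 0.0684) did not pass either.

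The transcription factors Cebpb and Cebpd, which drive acute-phase genes, rose together. Cebpd had signals of 299.8, 348.2 and 521.8 in control and of 1574.9, 2100.2, 2053.4 and 1451.8 at 3 h (log2 change 2.18 ± 0.29 SE; adjusted p = 0.00243), and a dimmer probe set of the gene changed by 0.25. Cebpb had signals of 161.9, 189.8 and 239.0 in control and of 733.4, 819.6, 750.3 and 664.7 at 3 h (1.84 ± 0.18 SE; adjusted p = 0.000319). Every 3 h array lay above every control in both genes. With Klf9 (0.62 ± 0.13 SE) they were the 3 of 16 KLF and C/EBP factors that rose (18.8% called; median 0.07), and none fell. The largest rise of all genes was Ptx3, a secreted pentraxin of innate immunity, at 11.5, 6.1 and 7.7 in control and 192.1, 214.2, 268.7 and 193.0 at 3 h (3.25 ± 0.20 SE; adjusted p = 8.1e-06). A dimmer probe set of Ptx3 changed by 0.11. Haptoglobin, Hp, a plasma acute-phase protein, rose from 25 ± 7.77 (SD, n = 3) to 106.0 ± 18.2 (SD, n = 4).

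Among targets of NF-kB and its feedback inhibitors 2 of 22 rose and none fell (9.09% called; median 0.20). The neutrophil chemokine Cxcl1 was at 22.2, 22.5 and 59.2 in control and at 83.7, 127.8, 140.7 and 83.2 at 3 h (1.35 ± 0.29 SE; adjusted p = 0.0309), and the adhesion molecule Vcam1 rose by 0.76 ± 0.18 (SE). Tnfaip3, the inhibitor of NF-kB known as A20, had the opposite sign (−0.53 ± 0.13 SE; adjusted p = 0.0548), and Icam1 had a log2 change of 0.77 (adjusted p = 0.117). Chosen after their values were seen, both interleukin 1 receptors rose: the signalling receptor Il1r1 from 85.5 ± 16.1 (SD, n = 3) to 189.0 ± 31.4 (SD, n = 4) and the decoy receptor Il1r2 from 12.0 ± 1.90 (SD, n = 3) to 29.7 ± 2.67 (SD, n = 4). A dimmer probe set of Il1r1 changed by −0.02. None of 20 interferon-stimulated genes (median 0.04) was called by limma, and 2 had an unadjusted p under 0.05 (15% of all genes). Without single arrays the calls were lost for Osmr and Cxcl1 (control replicate 1 or 2, 3 h replicate 2 or 3; adjusted p up to 0.0966 and 0.142), Pim3 (5 arrays, up to 0.104), Hp (7, up to 0.137), Vcam1 (9, up to 0.176), Klf9 (5, up to 0.124) and Il1r1 (control replicate 1, 0.0602).

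The promoters of Il6 and Cxcl1 are shown because both carry the sites that cytokine signalling is known to use. They are RefSeq sequences of GRCm38.p6, the Il6 window at chr5:30012864-30013113 (+ strand) covering the 250 bases before the start and the Cxcl1 window at chr5:90891126-90891213 (+ strand) the surroundings of its matches. Capitals mark matches to the kappa B motif (GGG and TTTCC with any 2 bases between them) on either strand and, in Il6 alone, to the AP-1 motif TGANTCA. A match is a description of the letters and not a measured binding site.
Il6: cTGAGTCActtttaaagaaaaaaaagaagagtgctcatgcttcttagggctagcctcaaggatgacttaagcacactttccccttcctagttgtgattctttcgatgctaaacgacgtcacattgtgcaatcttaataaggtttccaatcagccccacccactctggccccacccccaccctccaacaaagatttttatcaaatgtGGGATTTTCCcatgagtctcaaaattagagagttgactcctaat
Cxcl1: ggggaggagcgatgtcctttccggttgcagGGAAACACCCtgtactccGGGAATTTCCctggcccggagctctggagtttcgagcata
The kappa B motif was found in 1.4% of the 18109 promoters of tested genes, in 1.6% of 250 promoters of rising genes and in 2.02% of 198 promoters of falling genes. The AP-1 motif was found in 5.62%, 9.2% and 6.06%.

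Among the lists, that of genes induced by cyclic AMP had the largest share called (35.3%), with 6 of 17 rising and none falling. Their median log2 change was 0.46, and over all genes 2.54% were called. The early gene Fos, which is not on this list, fell (−0.86, adjusted p = 0.0143 by limma). The nuclear receptor Nr4a2 had signals of 30.7, 40.1 and 36.7 in control and 97.5, 104.5, 98.3 and 81.1 at 3 h (1.1 ± 0.11 SE; adjusted p = 0.000372). Crem, whose locus also gives rise to a cyclic AMP-induced repressor, went from 48.9, 32.2 and 45.3 to 139.1, 232.9, 136.3 and 128.4 (1.57 ± 0.19 SE; adjusted p = 0.00134). Pde4b, a phosphodiesterase that breaks down cyclic AMP, went from 54.8, 63.8 and 66.6 to 241.6, 287.7, 202.6 and 202.7 (1.67 ± 0.13 SE; adjusted p = 4.67e-05). In Crem a single array, 3 h replicate 2, stood above the other 3, whereas the 4 values of Nr4a2 lay close together. Nr4a3 (1.35 ± 0.22 SE), the small GTPase Gem (2.92 ± 0.29 SE) and the repressor Nfil3 (2.95 ± 0.33 SE) also rose, Gem from 33.4 ± 6.09 (SD, n = 3) to 360.0 ± 70.4 (SD, n = 4). Pde4d (0.46; adjusted p = 0.0508), Fosl2 (0.45; adjusted p = 0.0588) and Rgs2 (0.48; adjusted p = 0.137) had the same sign without passing the test. Dimmer probe sets of Nr4a2 changed by 0.04 to 1.24 and those of Crem by 0.07 to 1.31. Those of Nr4a3 changed by 0.13 and −0.14, and those of Pde4b by 0.08 to 1.5.

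Pde9a and Pde10a, chosen after their values were seen and not standing for other phosphodiesterases, rose too. Pde9a, which breaks down cyclic GMP, went from 425.0 ± 67.6 (SD, n = 3) to 1038 ± 92.0 (SD, n = 4) and Pde10a, which acts on both cyclic nucleotides, from 8.2 ± 2.95 (SD, n = 3) to 27.9 ± 4.84 (SD, n = 4). Dimmer probe sets of Pde10a changed by −0.08 to 0.45. Akap12, a scaffold that holds protein kinase A, had signals of 167.7, 150.4 and 127.6 in control and 392.1, 607.5, 477.2 and 389.4 at 3 h (1.54 ± 0.18 SE). Rcan1, an inhibitor of the calcium-dependent phosphatase calcineurin, had signals of 256.6, 190.7 and 257.4 in control and 759.4, 999.6, 821.3 and 643.1 at 3 h (1.71 ± 0.17 SE; adjusted p = 0.000319). A second probe set of Rcan1 changed by 1.91. Gucy1a1, a subunit of the nitric oxide receptor that makes cyclic GMP, fell from 138.4, 139.3 and 126.9 to 52.9, 70.2, 81.3 and 63.4 (−0.87 ± 0.15 SE; adjusted p = 0.012), a call lost without control replicate 1 or 2 (adjusted p up to 0.0599).

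Feedback inhibitors of growth factor signalling rose in part. Dusp1, a phosphatase of MAP kinases, was at 386.7, 341.1 and 529.6 in control and at 849.9, 964.3, 835.2 and 632.2 at 3 h (0.95 ± 0.21 SE; adjusted p = 0.0336). Errfi1, an inhibitor of the EGF receptor, rose from 500.0 ± 44.4 (SD, n = 3) to 1332 ± 155.0 (SD, n = 4), and the early response gene Ier3 rose by 0.70 ± 0.15 (SE). They were 3 of 19 MAP kinase phosphatases and feedback inhibitors, of which none fell (15.8% called; median 0.11); Dusp6, a target of ERK signalling named after its value was seen, had a log2 change of −0.53 (adjusted p = 0.326). Of 15 EGF family ligands and receptors the ligand epiregulin, Ereg, rose, with 56.2 on each of the 3 control arrays and 106.1, 115.7, 102.2 and 88.3 at 3 h (6.67% called; median 0.01). Erbb2 had a log2 change of −0.54 (adjusted p = 0.0593) and its adaptor Grb7 fell, with 503.1, 445.0 and 415.3 on the control arrays and 175.0, 241.2, 259.1 and 195.5 at 3 h. Of 20 ligands and receptors of the PDGF, VEGF, KIT and CSF1 families, which include kinases that imatinib inhibits, 1 was called and none rose. That is 5.0% (median −0.13), where 2.54% of all genes were called. The ligand Pdgfa fell from 323.5, 294.2 and 306.5 to 199.3, 193.6, 187.3 and 150.4 (−0.71 ± 0.12 SE, limma adjusted p = 0.0121). The calls of Dusp1 (5 arrays, adjusted p up to 0.136), Ier3 (7, up to 0.142), Ereg (control replicate 2, 0.0522) and Pdgfa (control replicate 1, 0.0617) were lost when 1 array was left out.

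The cyclic AMP response element TGACGTCA lay within 250 bases before the start in 4.0% of promoters of rising genes, 0.505% of those of falling genes and 2.12% of all. The 10 rising genes with it were Ch25h, Coa7, Dusp1, Ell2, Errfi1, Has1, Lmcd1, Maff, Rcan1 and Tmc7, several of them named here for this match alone. The surroundings of the match in Dusp1, a gene described above, are shown as read from RefSeq (GRCm38.p6, chr17:26508578-26508645 (- strand)), with the element in capitals.
Dusp1: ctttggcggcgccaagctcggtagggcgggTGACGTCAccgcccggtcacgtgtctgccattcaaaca

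Of 26 matrix proteases and inhibitors 3 rose, all of them secreted ADAMTS proteases that cleave proteoglycans, and the matrix metalloprotease Mmp11 fell (15.4% called; median 0.02). Adamts4 was at 15.2, 13.8 and 22.7 in control and at 254.9, 356.0, 234.9 and 158.5 at 3 h (2.96 ± 0.25 SE; adjusted p = 8.88e-05), and a second probe set changed by 3.36. Adamts9 was at 57.1, 41.4 and 38.7 in control and at 162.8, 263.6, 170.4 and 167.7 at 3 h (1.73 ± 0.17 SE; adjusted p = 0.000319), with dimmer probe sets at 1.40 and −0.12. Adamts1 had a log2 change of 2.82. The related secreted protein Adamtsl2 rose from 5.17 ± 0.306 (SD, n = 3) to 55.5 ± 10.6 (SD, n = 4), and the matrix protein thrombospondin 1, Thbs1, from 129.0 ± 27.8 (SD, n = 3) to 454.0 ± 76.2 (SD, n = 4). Mmp11 had signals of 11.9, 22.8 and 17.8 in control and 9.4, 2.7, 2.9 and 1.9 at 3 h, at the dim end of the arrays. The inhibitor Timp1 had a log2 change of 1.17 (adjusted p = 0.165) and the plasminogen activator Plat of 0.52 (adjusted p = 0.0765).

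A pair of hyaluronan genes, chosen after their values were seen, rose with them. Has1, a hyaluronan synthase, had signals of 14.8, 18.8 and 31.3 in control and 64.9, 61.6, 72.4 and 52.0 at 3 h (1.08 ± 0.22 SE; adjusted p = 0.0256). Tnfaip6, the secreted protein TSG-6 that crosslinks hyaluronan, went from 18.1 ± 0.971 (SD, n = 3) to 39.0 ± 4.15 (SD, n = 4). Crispld2, a secreted protein that glucocorticoids are known to induce, rose from 221.0 ± 16.2 (SD, n = 3) to 935.0 ± 162.0 (SD, n = 4), and follistatin, Fst, which binds activins, from 25.9 ± 6.19 (SD, n = 3) to 104.0 ± 8.05 (SD, n = 4). In the other direction the prolyl hydroxylase P4ha1, which modifies collagen, fell from 135.0 ± 10 (SD, n = 3) to 68.5 ± 1.84 (SD, n = 4). Thbs1 (control replicate 1, adjusted p = 0.0581), Tnfaip6 (control replicate 1 or 2, 3 h replicate 2 or 3; up to 0.0755), Has1 (5 arrays, up to 0.122) and Mmp11 (5, up to 0.113) lost their calls when 1 array was left out.

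**Figure D3:**
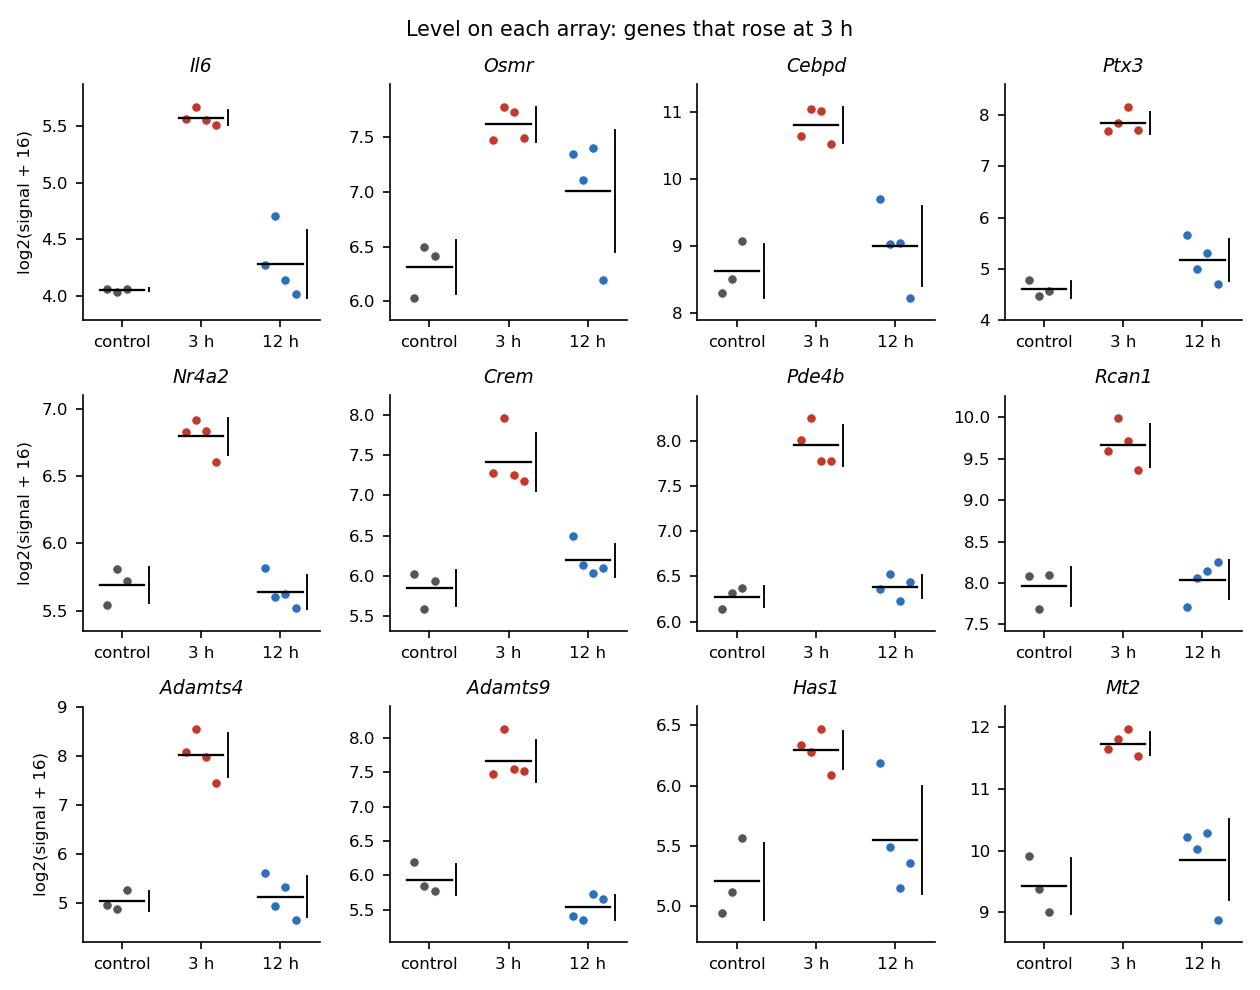
Level in log2(signal + 16) (vertical axis) on every array of the control (grey, n = 3), 3 h (red, n = 4) and 12 h (blue, n = 4) groups for 12 genes that rose at 3 h, each panel on its own scale. Horizontal lines are group means and vertical bars are 1 SD on each side. All 3 h arrays lie above all control arrays in each panel, with Adamts9 and Crem highest on 3 h replicate 2 (263.6 and 232.9 in signal).

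The metal-binding metallothioneins rose strongly. Mt2 had signals of 944.8, 647.4 and 500.1 in control and of 3187.4, 3546.7, 3975.0 and 2927.3 at 3 h (2.30 ± 0.31 SE; adjusted p = 0.0024). Mt1 had signals of 2454.3, 1330.2 and 1437.0 in control and of 4695.6, 5235.8, 5572.0 and 3946.7 at 3 h (1.52 ± 0.22 SE; adjusted p = 0.00459). The highest control of both genes was replicate 1, the array with the most pancreatic transcripts. The zinc exporter Slc30a1 (0.65 ± 0.15 SE) and the zinc importer Slc39a14 (0.72 ± 0.13 SE) also rose, so that 4 of 17 metallothioneins and zinc transporters rose and none fell (23.5% called; median 0.23). The vesicular zinc transporter Slc30a4 had a log2 change of 0.49 (adjusted p = 0.12). Slc30a1 lost its call without any 1 of 7 arrays (adjusted p up to 0.164) and Slc39a14 without control replicate 2 (0.0537).

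The promoter of Mt2 is shown because it holds repeated matches to TGCNCNC, a loose form of the metal response element. That element is the site of the zinc-sensing factor MTF1, and a match describes the letters and is not a measured binding site. The 250 bases before the start are from RefSeq (GRCm38.p6, chr8:94172368-94172617 (+ strand)), with matches to TGCNCNC (N is any base) on either strand in capitals.
Mt2: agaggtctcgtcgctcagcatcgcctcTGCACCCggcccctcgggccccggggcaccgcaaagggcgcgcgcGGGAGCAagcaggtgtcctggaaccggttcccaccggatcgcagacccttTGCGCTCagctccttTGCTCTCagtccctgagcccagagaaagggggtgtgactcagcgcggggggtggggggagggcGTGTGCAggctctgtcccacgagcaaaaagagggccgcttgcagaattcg
It held 5 matches, a number reached by 0.431% of all promoters, where the median promoter held 1. Mt1 and Slc30a1 held 1 each in the same window. Bases outside the window were not searched, so this does not count all such elements of a gene. At least 1 match to this loose motif was common, in 50.6% of all promoters, 51.6% of those of rising genes and 49.5% of those of falling genes.

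Heat shock proteins moved in both directions, more of them downward. At an unadjusted p under 0.05 (limma) there were 3 upward and 9 downward, where 15% of all genes reached that level. Of 20 heat shock proteins and co-chaperones the small heat shock protein Hspb8 rose (0.70 ± 0.13 SE) and Hspa4l (−0.72 ± 0.16 SE) and Chordc1 (−0.73 ± 0.13 SE), both partners of the larger chaperones, fell (15% called; median −0.19). Chordc1 had signals of 275.0, 304.4 and 393.4 in control and 189.2, 218.7, 170.4 and 172.9 at 3 h. Hspb1, another small heat shock protein, had a log2 change of 0.70 (adjusted p = 0.059), and Hsph1 (−0.77; adjusted p = 0.0985) and Stip1 (−0.53; adjusted p = 0.0967) had the opposite sign. The calls of Hspb8 (control replicate 2 or 3 h replicate 3, adjusted p up to 0.0784), Chordc1 (control replicate 2, 0.0522) and Hspa4l (7 arrays, up to 0.104) were lost when 1 array was left out. None of 19 p53 targets was called by limma (median 0.12), and 6 had an unadjusted p under 0.05 (15% of all genes did), 3 in each direction.

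Chac1, Slc7a5, Trib3, Slc7a1, Aars, Herpud1 and Atf4 rose, most of all on a single array. They were picked after their values were seen and belong to no list described here, so no share is read from them. Chac1, which degrades glutathione, had signals of 41.1, 27.7 and 28.6 in control and 414.7, 166.0, 109.2 and 102.6 at 3 h (1.94 ± 0.37 SE; adjusted p = 0.0181). The leucine transporter Slc7a5 had signals of 47.0, 35.8 and 43.1 in control and 225.2, 116.3, 103.3 and 129.0 at 3 h (1.41 ± 0.23 SE; adjusted p = 0.00784). Trib3, a pseudokinase that limits the ATF4 response, had signals of 16.2, 15.7 and 18.5 in control and 121.3, 42.9, 35.3 and 48.8 at 3 h (1.14 ± 0.26 SE; adjusted p = 0.0428). In each of these genes 3 h replicate 1 was the highest array, far above the other 3, and the controls were close to each other. The same array was highest for the arginine transporter Slc7a1 (699.0 against 399.5 to 518.7 on the other 3 h arrays), the alanine tRNA synthetase Aars (553.2 against 350.8 to 419.6), the stress protein Herpud1 (1083.1 against 640.3 to 897.7) and Atf4 (1246.7 against 878.3 to 1014.6). Slc7a1 rose by 1.21 ± 0.17 (SE), Aars by 0.85 ± 0.14 (SE), Herpud1 by 0.72 ± 0.16 (SE) and Atf4 by 0.67 ± 0.13 (SE). Dimmer probe sets of Atf4 changed by 0.80 and −0.18. Chac1 and Atf4 lost their calls without any 1 control or without 3 h replicate 2 (limma, adjusted p up to 0.0794 and 0.0975). Herpud1 lost its call without any 1 of 7 arrays (up to 0.122) and Trib3 without any 1 of 9 (up to 0.147).

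Promoter windows of Chac1 (chr2:119351019-119351086 (+ strand)), Aars (chr8:111033700-111033767 (+ strand)) and Herpud1 (chr8:94386287-94386354 (+ strand)) are shown because they share a composite element of the C/EBP and ATF factors. They are RefSeq sequences of GRCm38.p6 around the match, with TGATGNAA on either strand in capitals.
Chac1: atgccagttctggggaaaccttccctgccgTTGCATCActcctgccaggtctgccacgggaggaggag
Aars: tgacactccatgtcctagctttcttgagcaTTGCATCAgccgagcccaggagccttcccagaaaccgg
Herpud1: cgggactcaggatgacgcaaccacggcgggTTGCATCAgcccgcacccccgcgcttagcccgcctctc
The matches began 193, 112 and 112 bases before the start. The motif was in 2.39% of all promoters, 3.2% of those of rising genes and 1.52% of those of falling genes. For comparison, the kinase gene Sgk1, which glucocorticoids and aldosterone induce, went from 488.7, 788.5 and 611.7 to 2420.8, 2357.8, 2083.6 and 2538.2 (1.90 ± 0.21 SE), and its RefSeq promoter (chr10:21993671-21993745 (+ strand)) is shown because it holds the palindrome of the glucocorticoid response element (AGAACA and TGTTCT with any 3 bases between them, in capitals), found in 2 of all promoters and in 1 of those of rising genes.
Sgk1: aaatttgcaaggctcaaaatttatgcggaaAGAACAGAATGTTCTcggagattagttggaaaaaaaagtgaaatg

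Hedgehog genes were the list with the largest share falling, where 1.11% of all genes fell. The lists were chosen with earlier results of these data known. Of 18 measured 5 fell and 1 rose (33.3% called; median −0.19, with 15 below 0). The ligand Ihh, which the colonic epithelium secretes, had signals of 292.4, 230.5 and 203.3 in control and 117.8, 96.8, 119.1 and 110.5 at 3 h (−1.01 ± 0.16 SE; adjusted p = 0.00771). Its receptor Ptch1, itself a target of the pathway, went from 373.5, 313.5 and 348.1 to 149.5, 171.3, 175.3 and 183.3 (−0.96 ± 0.12 SE; adjusted p = 0.00226). The co-receptor Gas1 went from 318.3, 520.4 and 411.7 to 92.8, 176.0, 124.1 and 141.1 (−1.54 ± 0.33 SE; adjusted p = 0.0343). Ligand, receptor and co-receptor were each lower on all 4 arrays at 3 h than on any control. The same held for every called fall and for 8.55% of all genes. The co-receptor Cdon fell by 0.75 ± 0.12 (SE) and the mesenchymal target Foxf2 by 0.53 ± 0.10 (SE), whereas Foxf1, another mesenchymal target, rose from 210.0 ± 26.2 (SD, n = 3) to 364.0 ± 55.5 (SD, n = 4). Gli1, the usual readout of the pathway and named after its value was seen, had a log2 change of −0.03 (adjusted p = 0.964), and the signal transducer Smo, also named afterwards, of −0.16 (adjusted p = 0.597). Dimmer probe sets of Ptch1 changed by −0.00 and −0.16, 1 of Cdon by 0.26 and 1 of Foxf2 by 0.02. Without the arrays high in pancreatic transcripts none of the called hedgehog genes, Ptch1 among them, was still called. In that limma fit Ihh was at −0.91 (adjusted p = 0.0575), Cdon at −0.59 (0.108), Gas1 at −1.69 (0.0584), Foxf2 at −0.44 (0.21) and Foxf1 at 0.66 (0.206). With the mean of a gene's probe sets Ptch1 (−0.37; adjusted p = 0.104), Cdon (−0.25; adjusted p = 0.331), Foxf2 (−0.25; adjusted p = 0.239) and Foxf1 (0.48; adjusted p = 0.0682) were not called. Calls lost when an array was dropped were Gas1 (8 arrays, adjusted p up to 0.134), Foxf2 (3 h replicates 1, 2 or 3, control replicate 1; up to 0.0966) and Foxf1 (control replicate 1, 0.0602).

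Of 31 BMP and TGF-beta genes 2 fell and 2 rose (12.9% called; median −0.05). The ligand Bmp4 had signals of 171.8, 129.9 and 123.4 in control and 57.7, 55.7, 61.5 and 51.5 at 3 h (−1.11 ± 0.12 SE; adjusted p = 0.000609). Id4, an inhibitor of helix-loop-helix factors that BMPs induce, had signals of 468.9, 573.4 and 480.0 in control and 197.1, 188.5, 156.6 and 180.1 at 3 h (−1.41 ± 0.15 SE; adjusted p = 0.000564). The related Id2 moved the other way, from 159.0 ± 9.45 (SD, n = 3) to 310.0 ± 16.9 (SD, n = 4), and the receptor Tgfbr1 rose by 0.64 ± 0.15 (SE), a call lost without any 1 of 9 arrays (adjusted p up to 0.191). Bmp2 had a log2 change of −0.54 (adjusted p = 0.11).

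Of 41 Wnt ligands, receptors and modulators 3 fell, all of them receptors, and none rose (7.32% called; median 0.00). The receptor Fzd2 went from 108.5, 81.5 and 87.9 to 29.0, 21.0, 26.6 and 26.8 (−1.37 ± 0.15 SE; adjusted p = 0.000513), with dimmer probe sets at −1.19 and −0.98. Fzd7 went from 109.0 ± 25.3 (SD, n = 3) to 56.3 ± 10.3 (SD, n = 4) and the R-spondin receptor Lgr4 from 1799 ± 165.0 (SD, n = 3) to 1248 ± 56.7 (SD, n = 4). The ligand Wnt5a, made by the mesenchyme, had a log2 change of −0.70 (adjusted p = 0.0903), and Rspo1 of −0.82 (adjusted p = 0.178). The call of Fzd7 was lost without any 1 of 5 arrays (adjusted p up to 0.107) and that of Lgr4 without any 1 of 7 (up to 0.154), and a dimmer probe set of Lgr4 changed by 0.16.

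Other regulators of mesenchyme and epithelium were among the falls. Tcf21, a transcription factor of fibroblasts, went from 596.0, 504.2 and 511.9 to 224.5, 284.4, 249.6 and 205.4 (−1.11 ± 0.12 SE; adjusted p = 0.000564), with a dimmer probe set at −0.37. Mab21l2 fell from 174.8, 147.3 and 151.1 to 48.8, 78.2, 74.0 and 74.8 (−1.04 ± 0.16 SE). Ccn2, a matrix protein and target of YAP, fell from 370.0 ± 97.0 (SD, n = 3) to 145.0 ± 11.6 (SD, n = 4). It was the 1 of 20 YAP and TEAD targets to be called, downward (5.0%, where 2.54% of all genes were called). The median of the 20 was −0.12, with 16 below 0. The tubulin-binding protein Tppp showed the largest fall of all, from 283.3, 280.4 and 272.8 to 43.3, 58.1, 47.2 and 53.4, with no overlap and little spread in either group (−2.15 ± 0.37 SE; adjusted p = 0.0115, and up to 0.0551 without control replicate 1 or 2). None of 23 Notch pathway genes was called by limma (median −0.13, with 20 below 0), and 5 had an unadjusted p under 0.05, against 15% of all genes. The Notch targets Hes1 and Hey1 had log2 changes of −0.47 (adjusted p = 0.105) and −0.52 (adjusted p = 0.0822).

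**Figure D4:**
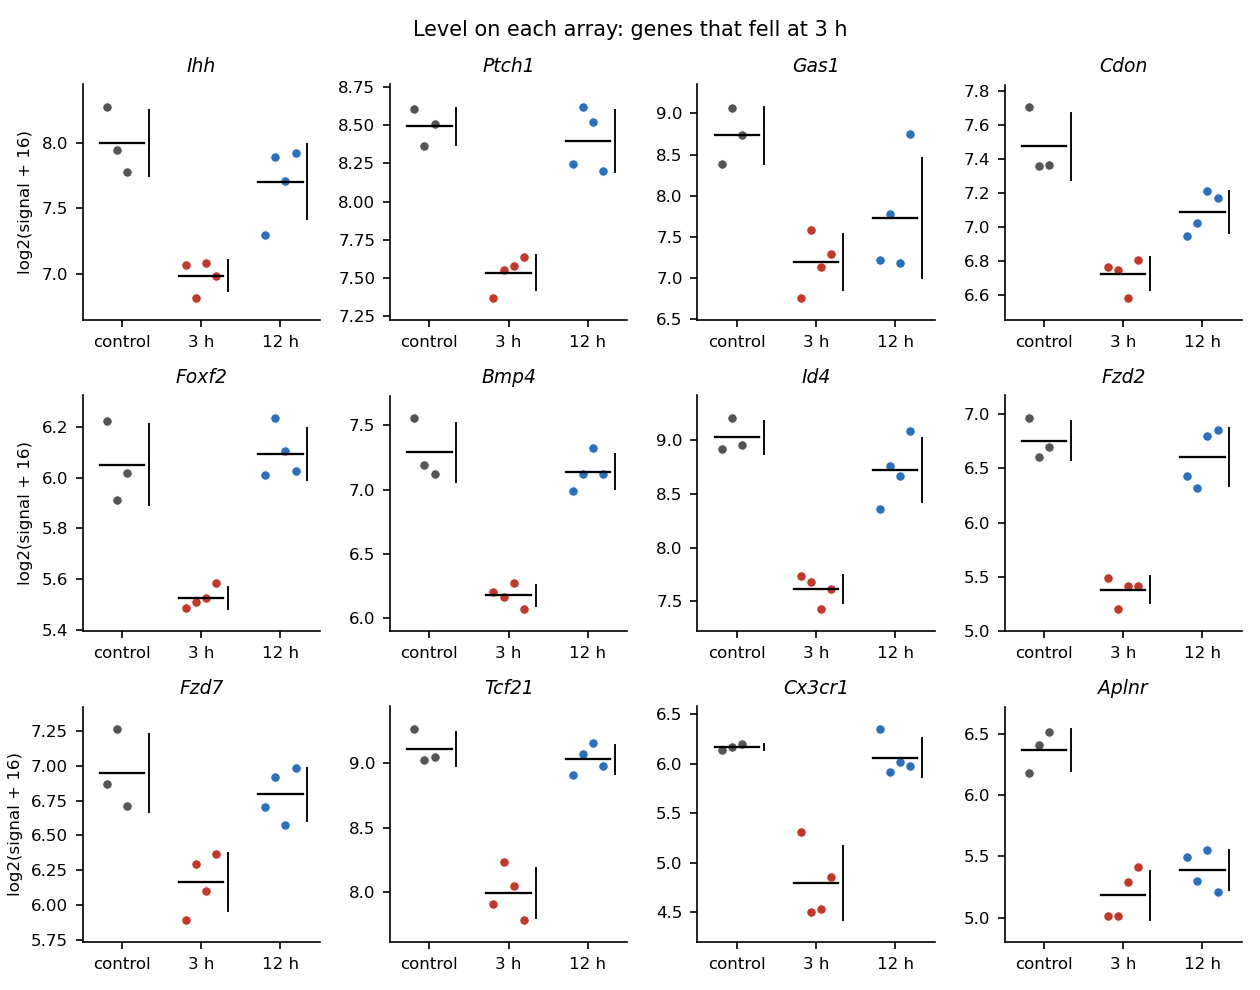
Level in log2(signal + 16) (vertical axis) on every array of the control (grey, n = 3), 3 h (red, n = 4) and 12 h (blue, n = 4) groups for 12 genes that fell at 3 h, each panel on its own scale. Horizontal lines are group means and vertical bars are 1 SD on each side. All 3 h arrays lie below all control arrays in each panel, and the 12 h arrays of Ptch1, Bmp4, Fzd2 and Tcf21 overlap the control arrays.

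Transporters of the absorptive epithelium changed in opposite directions. Atp12a, the colonic proton pump that exchanges protons for potassium, had signals of 1853.4, 1835.8 and 2114.3 in control and 523.3, 428.7, 397.8 and 472.0 at 3 h (−2.05 ± 0.21 SE; adjusted p = 0.000401). The sodium channel subunit Scnn1g, by contrast, went from 8.0, 12.3 and 7.8 to 49.2, 41.9, 43.8 and 65.6 (1.37 ± 0.22 SE; adjusted p = 0.00776). Nedd4l, the ubiquitin ligase that removes this channel from the membrane (0.72 ± 0.14 SE), the carbonic anhydrase Car12 (0.81 ± 0.16 SE) and the water channel Aqp1 (0.62 ± 0.15 SE) rose as well. In all 4 of 30 sodium, proton and chloride transport genes rose and Atp12a fell (16.7% called; median 0.10). The sodium-proton exchanger Slc9a3 had a log2 change of 0.60 (adjusted p = 0.0682) and the water channel Aqp4 of −0.56 (adjusted p = 0.0528).

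Of 23 bile acid, calcium and phosphate transport genes 4 rose and none fell (17.4% called; median 0.27). At an unadjusted p under 0.05 there were 7 upward and 4 downward (15% of all genes reached it). All 3 h arrays lay above all controls for 8 and below them for 5, where 6.76% and 8.55% of all genes did so. Slc10a2, the apical bile acid importer, had signals of 1.2, 7.6 and 12.2 in control and 58.9, 95.0, 67.8 and 49.7 at 3 h (1.87 ± 0.26 SE; adjusted p = 0.00377). Slc51a, which forms part of the basolateral exporter, had signals of 15.9, 25.7 and 83.6 in control and 329.0, 343.5, 347.5 and 268.6 at 3 h (2.72 ± 0.35 SE; adjusted p = 0.002). Its partner subunit Slc51b had a log2 change of 1.11 (adjusted p = 0.078) and the bile acid receptor Nr1h4 of 0.96 (adjusted p = 0.105). The calcium-binding protein S100g was at 32.9, 23.8 and 143.7 in control and at 275.2, 344.9, 419.5 and 288.3 at 3 h, and the calcium channel Trpv6 rose from 67.8 ± 15.9 (SD, n = 3) to 172.0 ± 37.6 (SD, n = 4). For Slc10a2, Slc51a and S100g control replicate 3 was the highest control. The vitamin D receptor Vdr had a log2 change of −0.41 (adjusted p = 0.075). The calls of S100g (control replicate 1 or 2, 3 h replicate 3; adjusted p up to 0.0841), Trpv6 (5 arrays, up to 0.0931), Nedd4l (control replicate 1 or 2, 3 h replicate 2 or 3; up to 0.0943), Car12 (5 arrays, up to 0.108) and Aqp1 (8, up to 0.179) were lost when 1 array was left out.

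Of 28 potassium channel genes 2 rose and none fell (7.14% called; median 0.06). Kcne4, an inhibitory subunit of voltage-gated potassium channels, had signals of 69.6, 52.2 and 44.0 in control and 530.6, 808.8, 648.7 and 487.1 at 3 h (3.14 ± 0.20 SE; adjusted p = 8.1e-06). Kcnj8, the pore of ATP-sensitive potassium channels of vascular muscle, had signals of 85.6, 105.8 and 121.4 in control and 424.7, 581.4, 477.0 and 348.2 at 3 h (1.97 ± 0.37 SE; adjusted p = 0.018), a call lost without control replicate 1 or 2 or 3 h replicate 2 or 3 (adjusted p up to 0.0885). The channel gene Kcnk5 had a log2 change of −0.45 (adjusted p = 0.166). Slc10a6, a carrier of sulfated steroids, rose from 25.2 ± 3.05 (SD, n = 3) to 165.0 ± 30.3 (SD, n = 4).

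Hormone genes of the epithelium also diverged. Of 21 enteroendocrine genes neurotensin, Nts, rose from 33.2, 76.2 and 157.3 to 364.5, 456.4, 628.1 and 391.5 (2.34 ± 0.35 SE; adjusted p = 0.00594), and Insl5, the hormone of distal colonic L cells, fell from 1297 ± 298.0 (SD, n = 3) to 845.0 ± 43.7 (SD, n = 4; 9.52% called; median 0.06). The Insl5 call was lost without any 1 of the 11 arrays (adjusted p up to 0.161). The granule protein Chga had a log2 change of 0.70 (adjusted p = 0.0603) and secretin, Sct, of 0.78 (adjusted p = 0.0917). None of 22 goblet cell and mucin genes (median −0.05) and none of 19 tight junction genes (median −0.09) was called by limma, and 4 and 6 of them had an unadjusted p under 0.05, against 15% of all genes. Cldn2, a pore-forming claudin, had a log2 change of 0.48 (adjusted p = 0.0834) and Cldn23 of −0.64 (adjusted p = 0.107).

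Genes of lipid and glucose use changed in part. Of 24 genes of fatty acid oxidation and PPAR targets 4 rose and 1 fell (20.8% called; median 0.18). The regulators Pparg, which went from 196.8, 178.2 and 195.4 to 500.5, 346.0, 347.2 and 340.4 (0.94 ± 0.15 SE; adjusted p = 0.00657), and Creb3l3 (1.14 ± 0.19 SE) rose, as did the fatty acid hydroxylase Cyp4b1 (1.78 ± 0.41 SE) and the pantetheinase Vnn1 (1.18 ± 0.28 SE). The lipid droplet protein Plin2 fell (−0.59 ± 0.12 SE). Fat cell markers were higher at 3 h, as given above, and Pparg is known to be a fat cell factor too. Of 21 hypoxia and glycolysis genes the glycolytic regulator Pfkfb3, at 18.1, 22.1 and 31.5 in control and 117.7, 141.7, 110.1 and 108.1 at 3 h (1.77 ± 0.16 SE; adjusted p = 0.000174), and Ndrg1 (0.96 ± 0.15 SE) rose, and P4ha1 and the vasodilator adrenomedullin, Adm (−0.56 ± 0.12 SE), fell (19.0% called; median −0.11). A dimmer probe set of Pfkfb3 changed by 0.25. Cyp4b1 (7 arrays, adjusted p up to 0.168), Vnn1 (9, up to 0.202), Plin2 (5, up to 0.116) and Adm (7, up to 0.154) lost their calls when 1 array was left out.

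Of 22 genes of the insulin and FoxO response 3 fell and none rose (13.6% called; median 0.01). The insulin receptor substrate Irs1 had signals of 188.8, 176.8 and 198.4 in control and 81.0, 82.8, 79.2 and 80.3 at 3 h, so that the 3 h arrays lay close together and well below the controls (−1.07 ± 0.11 SE; adjusted p = 0.000425). The muscle-wasting ubiquitin ligase Fbxo32 (−0.85 ± 0.20 SE) and the cell cycle inhibitor Cdkn1b (−0.74 ± 0.14 SE), both induced by FoxO factors, fell as well. Their calls were lost without any 1 of 9 arrays (adjusted p up to 0.164) and without control replicate 2 or 3 (up to 0.071). With the mean of its probe sets Cdkn1b changed by −0.33 (adjusted p = 0.192). Of 26 genes of polyamine synthesis and ribosome biogenesis 3 rose and none fell (11.5% called; median 0.18). They were ornithine decarboxylase, Odc1 (0.44 ± 0.10 SE), its protector Azin1, from 984.0 ± 125.0 (SD, n = 3) to 1692 ± 157.0 (SD, n = 4), and the nucleolar protein Gnl3 (0.49 ± 0.11 SE). The calls of Odc1 and Gnl3 were lost without any 1 of 6 and 7 arrays (adjusted p up to 0.137 and 0.142). Arg2, the arginase that makes ornithine, was at 21.7, 22.8 and 35.9 in control and at 101.6, 132.4, 192.2 and 100.1 at 3 h (1.76 ± 0.24 SE; adjusted p = 0.00286).

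In the lists of vascular and macrophage genes the few called members fell, where 2.54% of all genes were called. Kcnj8 of vascular muscle, on another list, rose, as given above. Of 31 endothelial and vascular tone genes the apelin receptor Aplnr, at 56.5, 69.0 and 75.2 in control and 16.4, 16.4, 23.1 and 26.7 at 3 h (−1.18 ± 0.14 SE; adjusted p = 0.000807), and Adm fell and none rose (6.45% called; median 0.00). Of 22 macrophage genes the fractalkine receptor Cx3cr1 fell and none rose (4.55% called; median −0.27, with 19 below 0). It had signals of 54.4, 55.7 and 57.3 in control and 23.6, 6.7, 7.2 and 12.9 at 3 h (−1.37 ± 0.18 SE; adjusted p = 0.00231). The controls of Cx3cr1 lay within a narrow band, and the 3 h arrays lay well below it. The scavenger receptor Cd163 had a log2 change of 0.54 (adjusted p = 0.182) and Adgre1 of −0.29 (adjusted p = 0.243). None of 16 neutrophil and mast cell genes (median 0.12), 14 B and plasma cell genes (−0.12), 20 enteric neuron and glia genes (−0.05) and 18 smooth muscle genes (0.09) was called by limma. In these lists 5, 1, 1 and 2 genes reached an unadjusted p under 0.05, as 15% of all genes did. The neutrophil protein S100a8 had a log2 change of 1.55 (adjusted p = 0.0998).

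Of 18 circadian clock genes Per1 (0.80 ± 0.11 SE) and Nfil3 rose and Clock (−0.45 ± 0.09 SE) fell (16.7% called; median −0.12). Per1, which glucocorticoids also induce, had signals of 35.5, 43.9 and 43.2 in control and 89.0, 81.9, 79.2 and 80.3 at 3 h. Dbp, a clock output gene, had a log2 change of −0.69 (adjusted p = 0.107). The call of Clock was lost without any 1 of 6 arrays (adjusted p up to 0.114).

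Several of the 40 largest rises lay outside the lists. Zbtb16, a zinc finger repressor that glucocorticoids are known to induce, rose from 72.9 ± 14.6 (SD, n = 3) to 305.0 ± 20.8 (SD, n = 4). Sphk1, the kinase that makes sphingosine phosphate, had signals of 24.9, 25.4 and 34.2 in control and 189.1, 201.5, 183.2 and 145.9 at 3 h (2.15 ± 0.15 SE; adjusted p = 1.37e-05). The keratin Krt36 (1.65 ± 0.1 SE), Smim3 (1.85 ± 0.13 SE), the hexokinase-related Hkdc1 (1.53 ± 0.23 SE) and Prap1 (1.97 ± 0.31 SE) rose as well. So did the transcription factor Osr2 (2.14 ± 0.42 SE), the carboxylesterase Ces1g (1.81 ± 0.3 SE) and the cytochrome P450 Cyp2c65 (1.6 ± 0.37 SE). Their controls were uneven: Osr2 was at 2.7, 14.8 and 65.1 in control and at 114.0, 97.4, 232.3 and 157.7 at 3 h. The calls of Osr2 (control replicate 1 or 2, 3 h replicate 3 or 4; adjusted p up to 0.091), Ces1g (control replicate 1, 0.0543) and Cyp2c65 (8 arrays, up to 0.176) were lost when 1 array was left out. Dimmer probe sets changed by 0.10 for Osr2 and −0.22 for Hkdc1.

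Of the 40 largest falls, Golph3l had signals of 853.9, 824.2 and 677.8 in control and 361.3, 374.2, 372.8 and 394.6 at 3 h (−1.03 ± 0.13 SE; adjusted p = 0.00232). The endothelial lipase Lipg (−1.14 ± 0.15 SE), the methyltransferase Etfbkmt (−1.25 ± 0.2 SE), the secreted protein Fibin (−0.92 ± 0.14 SE) and the phosphatase Pdp2 (−0.81 ± 0.13 SE), which activates pyruvate dehydrogenase, fell. Cnst (−0.94), Filip1l (−0.85) and Mrgprf (−0.85) fell too, and these 8 genes were called in every fit that left out 1 array. The early gene Fos fell from 1716 ± 87.7 (SD, n = 3) to 941.0 ± 61.6 (SD, n = 4), a call lost without control replicate 1 or 2 (adjusted p up to 0.0694). Hoxd13 (−1.15), Hoxb13 (−0.97), Ypel2 (−0.99), Bnip5 (−0.97) and Tmem236 (−0.93) each lost the call in 1 or 2 such fits (adjusted p up to 0.0892). The fucosyltransferase Fut9 (−0.9), the matrix protein Spon2 (−0.9), Rasd2 (−0.87), the RNA-binding protein Tardbp (−0.8), the Akt phosphatase Phlpp1 (−0.78) and the mitotic genes Aspm (−0.82) and Hmmr (−0.78) lost theirs in 5 to 10 (up to 0.196). With the mean of probe sets Aspm changed by −0.15 (adjusted p = 0.627), Spon2 by −0.44 (adjusted p = 0.227), Tardbp by −0.37 (adjusted p = 0.135) and Ypel2 by −0.49 (adjusted p = 0.0821).

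**Figure D5:**
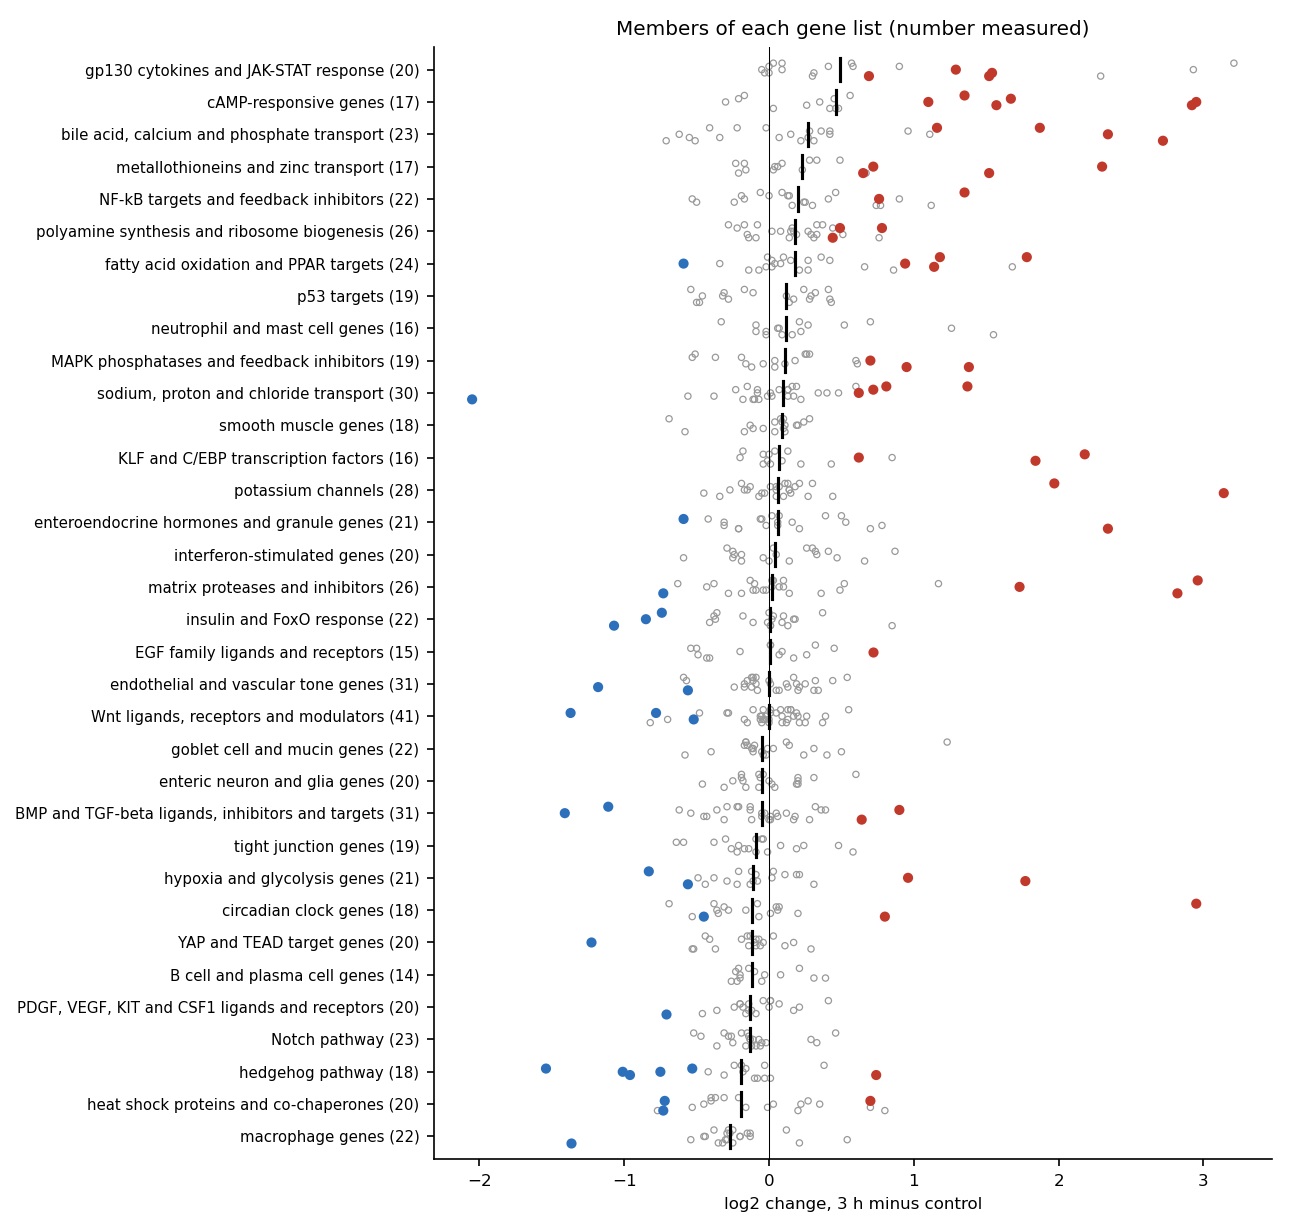
Log2 change from control to 3 h (horizontal axis) of each measured member of the 34 gene lists (vertical axis, number measured in brackets), ordered by their medians (black bars). Red points are genes that rose, blue points genes that fell and open points genes not past the test. The gp130 and cyclic AMP lists have the highest medians (0.49 and 0.46), the macrophage list the lowest (−0.27), and most members of most lists lie near 0.

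The same genes were then read on the 12 h arrays. Comparisons of 3 h and of 12 h with control share the control arrays, and the comparison of 12 h with 3 h shares the 3 h arrays, so values are set side by side. Of the 261 rises 123 differed between 12 h and 3 h, 122 of them lower at 12 h, and of the 202 falls 77 differed, 75 of them higher at 12 h, where 4.08% of all genes differed between 12 h and 3 h. The genes were chosen for their values on the same 3 h arrays, which favours this direction, so nothing is read from these counts. Against control, the 12 h arrays gave calls in the same direction for 52 of the rises and 36 of the falls, and in the other for 1 of each, where 1.62% of all genes were called. The median 12 h change was 0.32 for the rising and −0.25 for the falling genes.

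At 12 h several of the early rises were near their control levels. Il6 averaged 3.77 ± 4.34 (SD, n = 4), Pde4b 68.1 ± 7.32 (SD, n = 4) and Adamts4 20.4 ± 10.4 (SD, n = 4). Their log2 changes against control were 0.23, 0.11 and 0.10 at 12 h, and none of the 3 was called then (adjusted p = 0.485, 0.762 and 0.914). Ptch1 (323.0 ± 48.2, SD, n = 4), Bmp4 (125.0 ± 13.6) and Fzd2 (82.3 ± 17.8) lay near their control levels, and Atp12a reached 2797 ± 840.0 (SD, n = 4; log2 change against control 0.48, adjusted p = 0.306). Of the bile acid and calcium genes called at 3 h, Slc10a2, Slc51a and S100g were above control at 12 h, though the median 12 h change of the 23 genes of their list was 0.04. Slc10a2 averaged 95.8 ± 37.8 (SD, n = 4), Slc51a 290.0 ± 97.1 (SD, n = 4) and S100g 363.0 ± 188.0 (SD, n = 4), with log2 changes against control of 2.25, 2.52 and 2.37 (adjusted p = 0.00166, 0.00578 and 0.0217). Scnn1g (1.53; adjusted p = 0.00732) was also high at 12 h. Irs1 (−0.77; adjusted p = 0.00743) and Aplnr (−0.98; adjusted p = 0.00585) were below control at 12 h. Trpv6, which rose at 3 h, had a 12 h change of −0.76 against control (adjusted p = 0.117), and the difference between 12 h and 3 h passed the test (adjusted p = 0.000366).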

How the data were processed

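Colon RNA of 3 control, 4 3 h and 4 12 h samples was labelled with biotin and hybridised to 1-colour expression arrays, 1 array per sample, per the labels. The deposited values are probe-set intensities on a linear scale, already scaled by the authors to a common trimmed mean. Which software made them is not given in the sources used here. Precision is limited by how few arrays there are.

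Of 45101 probe sets 34945 had a single gene symbol in GEO's platform annotation, 932 had several, 9160 had none and 64 were controls. The probe set with the highest mean over all 11 arrays stood for each of 18193 genes. Values were log2(signal + 16), a scale that understates changes of dim genes. For 32.9% of genes the mean log2 level lay below that of a signal of 16. Genes were tested with limma 3.58.1 (R 4.3.3; lmFit and eBayes, 3 groups, residual df 8, prior df 3.98) and called at a Benjamini-Hochberg adjusted p under 0.05 over all genes. The fit was also run on simulated data with independent normal noise and no differences between arrays, which does not show how it performs on these arrays. Promoters (RefSeq, GRCm38.p6) were searched on both strands in Python 3.11.15, over the 250 bases before the start, and figures drawn with matplotlib 3.10.9.

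Named were the 40 largest rises and 40 largest falls, every called list member, and up to 3 further members per list with the smallest p. Genes outside this rule, among them the markers Cdx2 and Fabp4, were chosen after their values were seen. The comparison, the lists and the rule were chosen with earlier results of these data known. Deviations of same-numbered arrays from their group means correlated weakly or not at all (r −0.208 to 0.309), which cannot exclude pairing. The labels do not say that a number pairs samples, so numbers were not treated as pairs. Alternatives were offsets of 1 and 64, a mean signal of at least 32, an equal median, quantile normalization, the mean of a gene's probe sets, the 7 arrays alone, an intensity trend, a robust prior, array weights, a replicate block, each array left out in turn and, chosen after seeing the data, the arrays high in pancreatic transcripts left out. Ephb2 was not analysed here.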

Additional observations from a re-analysis of the deposited data

Results flagged for a closer look

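Single arrays lay far from the other 3 at 3 h for 5 of the 80 largest changes, and chance alone marks about 1 in 20 groups. Signals were highest on replicate 2 for Adamts9 (263.6) and Crem (232.9). They were lowest on replicate 1 for Cyp4b1 (113.4) and Mab21l2 (48.8), and on replicate 2 for Fst (92.2).

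The level at 12 h differed from that at 3 h (limma, adjusted p 5.55e-06 to 0.0378) for many of the same genes, which were chosen for their values on these 3 h arrays. Among the rises the log2 difference, 12 h minus 3 h, was Ptx3 −2.68, Kcne4 −2.29, Adamts4 −2.87, Nfil3 −3.11, Gem −2.59, Adamts1 −2.12, Mt2 −1.88, Cebpd −1.8, Sphk1 −1.9, Slc10a6 −1.9, Crispld2 −1.85, Chac1 −1.82 and Zbtb16 −1.29. It was Smim3 −1.33, Cebpb −1.38, Pfkfb3 −1.87, Arg2 −1.16, Adamtsl2 −0.8, Adamts9 −2.13, Rcan1 −1.62, Thbs1 −1.54, Pde4b −1.56, Krt36 −1.64, Crem −1.22, Akap12 −1.84 and Fst −0.84 for further rises, all lower at 12 h. Among the falls the log2 difference was Atp12a 2.53, Id4 1.1, Fzd2 1.22, Cx3cr1 1.26, Hoxd13 0.9, Lipg 0.6, Tcf21 1.03, Bmp4 0.96, Mab21l2 1.33, Golph3l 0.67, Ihh 0.72, Hoxb13 0.88, Ptch1 0.86, Cnst 0.76, Tmem236 0.66, Gucy1a1 0.84, Rasd2 0.98, Fos 0.67, Filip1l 1.09, Mrgprf 0.72, P4ha1 0.48, Tardbp 0.95 and Fzd7 0.63, all higher at 12 h. It was Ypel2 −0.97 and Bnip5 −0.83 for falls that were lower still at 12 h.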

How the results depend on the processing

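Against 261 rises and 202 falls, the counts were 319 and 278 with array weights, 289 and 147 with an equal median, 295 and 253 with an intensity trend, 217 and 155 with the mean of probe sets, 352 and 352 of 10438 genes with a mean signal of at least 32, 145 and 83 with an offset of 1, 318 and 327 with an offset of 64, 299 and 206 after quantile normalization, 261 and 177 on the 7 arrays alone, and 259 and 198 with a robust prior. Leaving out 1 array gave 109 to 293 rises and 52 to 227 falls. Without the arrays high in pancreatic transcripts, an alternative chosen after seeing the data that leaves 6 arrays, 68 rose and 12 fell. With the replicate block 191 rose and 87 fell, of which 164 and 79 were called without it. The labels do not say whether a number pairs samples. The cause of these shifts was not tested.

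Of 124 named genes followed, 42 were called with the same sign in every setting run on them and 0 reversed. Without control replicate 1 or 2, 48 and 50 of them were no longer called, without 3 h replicates 1 to 4, 28, 38, 41 and 25. Without the arrays high in pancreatic transcripts 77 were no longer called, with an offset of 1 there were 42, with the mean of probe sets 25, with the replicate block 23 and on the 7 arrays alone 15. Few arrays, and 32.9% of genes with a mean log2 level below that of a signal equal to the offset, limit what could be detected.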
